A study of Mus musculus with 64 samples.

Results

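The 9 genes described here encode 4 GTPases of the Ras family (Hras, Nras, Rras and Rras2) and 5 of the exchange factors that switch such GTPases on (Sos1, Sos2, Rasgrp1, Rasgrp3 and Rasgrp4). They were taken by symbol from a table of 26286 mouse genes, and all 9 were measured above 0 in each of the 64 libraries. The study compared scat mice with wild-type littermates. The scat strain, CbyJ.Cby-Rasa3(scat)/Llp, carries a mutation in Rasa3, the gene of a GTPase-activating protein that switches Ras and Rap1 off, and scat/scat mice pass through phases of severe anaemia (crisis) and of recovery (remission). RNA was sequenced from whole bone marrow, whole spleen and 2 progenitor populations sorted from each of those tissues, and the libraries came from 18 mice. The megakaryocyte-erythroid progenitors (MEP) give rise to platelet-forming and red cells. The stem and myeloid progenitors (SMP) were sorted as cells low in lineage markers and Sca, positive for Kit and CD34, and low in the Fc receptors CD16 and CD32.

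The groups were homozygous scat/scat mice in crisis (18 libraries, 3 mice aged 23 to 28 days, the same 3 in every population), young +/+ littermates (18 libraries, 7 mice aged 23 to 28 days), scat/scat mice in remission (17 libraries, 5 mice aged 32 to 58 days) and older +/+ mice (10 libraries, 3 mice aged 32 to 58 days). Each population had 3 libraries per group for crisis, young wild type and remission, except that spleen MEP had 2 remission libraries. Older wild-type mice gave 2 libraries per population, or 1 in whole spleen and in spleen SMP. The young wild-type spleen SMP libraries came from 3 mice that gave no other library. All remission mice were older than all crisis mice, so a comparison of those 2 groups does not separate state from age, and older wild type, with 1 or 2 libraries per population, was not tested against them. The mutation is present in every cell of the body, so effects within a progenitor and effects of its surroundings cannot be told apart in this design.

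Ras proteins work as switches that signal when GTP is bound. Exchange factors such as the Sos proteins, which are brought to the membrane by adaptors of receptor tyrosine kinases, and the RasGRP proteins, which respond to diacylglycerol and, in several members, calcium, load them with GTP, while GTPase-activating proteins end the signal. Among blood cells, Rasgrp1 is known for T cell receptor signalling, Rasgrp3 for B cell receptor signalling and Rasgrp4 for its expression in mast cells and other myeloid cells.

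The 4 GTPases differ in length and sequence but share a short C-terminal signal, the CAAX box, whose cysteine receives a lipid anchor. It is shown because it is the feature of all 4 that places them at membranes, where the exchange factors meet them. The last 30 coding bases of 1 annotated transcript of each gene (GENCODE M21, GRCm38) are given 5′ to 3′, with the 4 codons of the CAAX box in capitals and the stop codon after them.
Hras: tgcatgagctgcaaaTGTGTGCTGTCCtga
Nras: tgtatggggctgcccTGTGTGCTGATGtag
Rras: gatggaggatgtcccTGTGTCCTGCTGtag
Rras2: aagaaaggctgccatTGTGTCATTTTCtaa
All 4 boxes begin with the cysteine codon TGT, and Hras and Nras share their first 3 codons. The coding sequences were 570 bases long in Hras and Nras, 657 in Rras and 615 in Rras2. Hras and Nras were identical at 75.96% of aligned coding positions and Rras and Rras2 at 63.3%, whereas pairs taken across these 2 groups were identical at 54.1% to 59.1%. The tables give 1 value per gene, and how reads shared between such related sequences were divided is not given in the sources used here.

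On GRCm38 (GENCODE M21), Hras (ENSMUSG00000025499) lies on chromosome 7 from 141189105 to 141194005 on the minus strand and Nras (ENSMUSG00000027852) on chromosome 3 from 103058285 to 103067914 on the plus strand. Rras (ENSMUSG00000038387) lies on chromosome 7 from 45017961 to 45021647 on the plus strand and Rras2 (ENSMUSG00000055723) on chromosome 7 from 114046782 to 114117781 on the minus strand. Sos1 (ENSMUSG00000024241) occupies 80393751 to 80480453 on the minus strand of chromosome 17 and Sos2 (ENSMUSG00000034801) 69583762 to 69681852 on the minus strand of chromosome 12. Rasgrp1 (ENSMUSG00000027347) occupies 117279993 to 117343001 on the minus strand of chromosome 2, Rasgrp3 (ENSMUSG00000071042) 75435896 to 75529054 on the plus strand of chromosome 17 and Rasgrp4 (ENSMUSG00000030589) 29134851 to 29153961 on the plus strand of chromosome 7. All 9 are protein-coding genes, and Rasgrp4 is the only one of them whose exons overlap those of other genes, sharing 978 bases with Fam98c and 181 bases with the antisense gene Gm16282, both on the opposite strand. Whether the counting used strand is not given in the sources used here, so reads of Rasgrp4 and of these genes cannot be told apart within the shared bases.

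Levels are given as normalised read counts, rescaled so that libraries are on 1 scale. The deposited normalised counts summed to 33600609 to 107616173 per assigned library, with a median of 50520882. In the sorted young wild-type populations the erythroid factor Gata1 was at 11532 to 15739 normalised counts in MEP and 1919 to 5022 in SMP, and Cd34 at 33.1 to 873 in MEP and 13750 to 34657 in SMP. Of 7 megakaryocyte markers, 5 (bone marrow) and 6 (spleen) were lower in MEP than in SMP, and 1 was higher in each tissue. Of the 7, Itga2b was at 98.2 to 457 in MEP and 3570 to 5186 in SMP. A comparison with SMP alone does not settle the megakaryocyte part of the MEP name. The myeloid gene Mpo was at 90.6 and 138 in 2 young wild-type spleen MEP libraries and at 2741 in replicate 3, and Rras and the 3 RasGRP genes were also highest in that library among the 3. In whole spleen, remission replicate 1, from a mouse aged 58 days, stood apart: its correlation with the other remission libraries across genes was 0.889 and 0.891, against 0.953 to 0.986 for all other pairs of replicates. Its Rasa3 level, 22194 normalised counts, was also above all other whole spleen libraries, whereas the other remission libraries read 4391 and 4803. The labels place it in remission, but its low correlation leaves that label in doubt. The remission estimates printed below are given with and without that mouse. It also gave remission replicate 1 of whole bone marrow, bone marrow MEP and bone marrow SMP. Rasa3 itself, which carries the scat mutation, is transcribed in scat mice, so its level does not check the labels: in whole spleen it was at 13270, 12661 and 13320 normalised counts in young wild type and 2116, 3273 and 3324 in crisis.

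Nras was the most abundant of the 9 per kilobase of exon in 5 of the 6 young wild-type populations, at 1296 to 1462 normalised counts per kilobase, and the libraries of the next gene did not reach it in any of them. In whole spleen Rasgrp1 came first, at 1843 ± 61.4 (SD, n = 3) normalised counts per kilobase, above Nras at 1149 ± 83.2, with no overlap. Below them in whole spleen, Rasgrp3 (739) and Hras (667) overlapped each other, as did Sos2 (513), Rras2 (488) and Rras (475). In whole bone marrow the order was Nras (1326), Rasgrp4 (929), Rasgrp1 (758), Sos2 (667) and Hras (458), and each of the last 4 overlapped its neighbour. With the longest transcript as length, Sos2 came above Rasgrp1 in whole bone marrow. Rasgrp3 was lowest there, at 106 ± 5.97 (SD, n = 3) normalised counts per kilobase.

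The sorted progenitors had another order. In MEP, Hras came second to Nras, at 673 (bone marrow) and 729 (spleen) normalised counts per kilobase, followed by Sos2 at 601 and 645. Hras and Sos2 overlapped in bone marrow and not in spleen. Their order depends on the length used, 3733 bases of exon union for Hras and 8514 for Sos2. With the longest transcript (2828 and 5607 bases), the Sos2 mean came above that of Hras in MEP of both tissues. In SMP, Sos2 came second, at 519 in bone marrow and 616 in spleen, and Hras stood at 231 and 222. The 3 RasGRP genes were the 3 lowest in all 4 sorted populations, at 6.11 to 42.1 normalised counts per kilobase. The order of Rasgrp3 and Rasgrp4 was unsettled there, since they overlapped in all 4. Rasgrp1 lay below both without overlap in bone marrow SMP, and overlapped Rasgrp3, Rasgrp4 or both in the other sorted populations.

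Over the 6 young wild-type populations the genes fell into steady and variable ones. The highest population mean was 1.27 times the lowest for Nras, 1.30 for Sos2, 1.88 for Sos1 and 1.92 for Rras2. The same ratio was 3.28 for Hras and 5.95 for Rras. For the RasGRP genes it reached 239 (Rasgrp1), 117 (Rasgrp3) and 152 (Rasgrp4), with the highest level in whole spleen for Rasgrp1 and Rasgrp3 and in whole bone marrow for Rasgrp4.

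**Figure D1:**
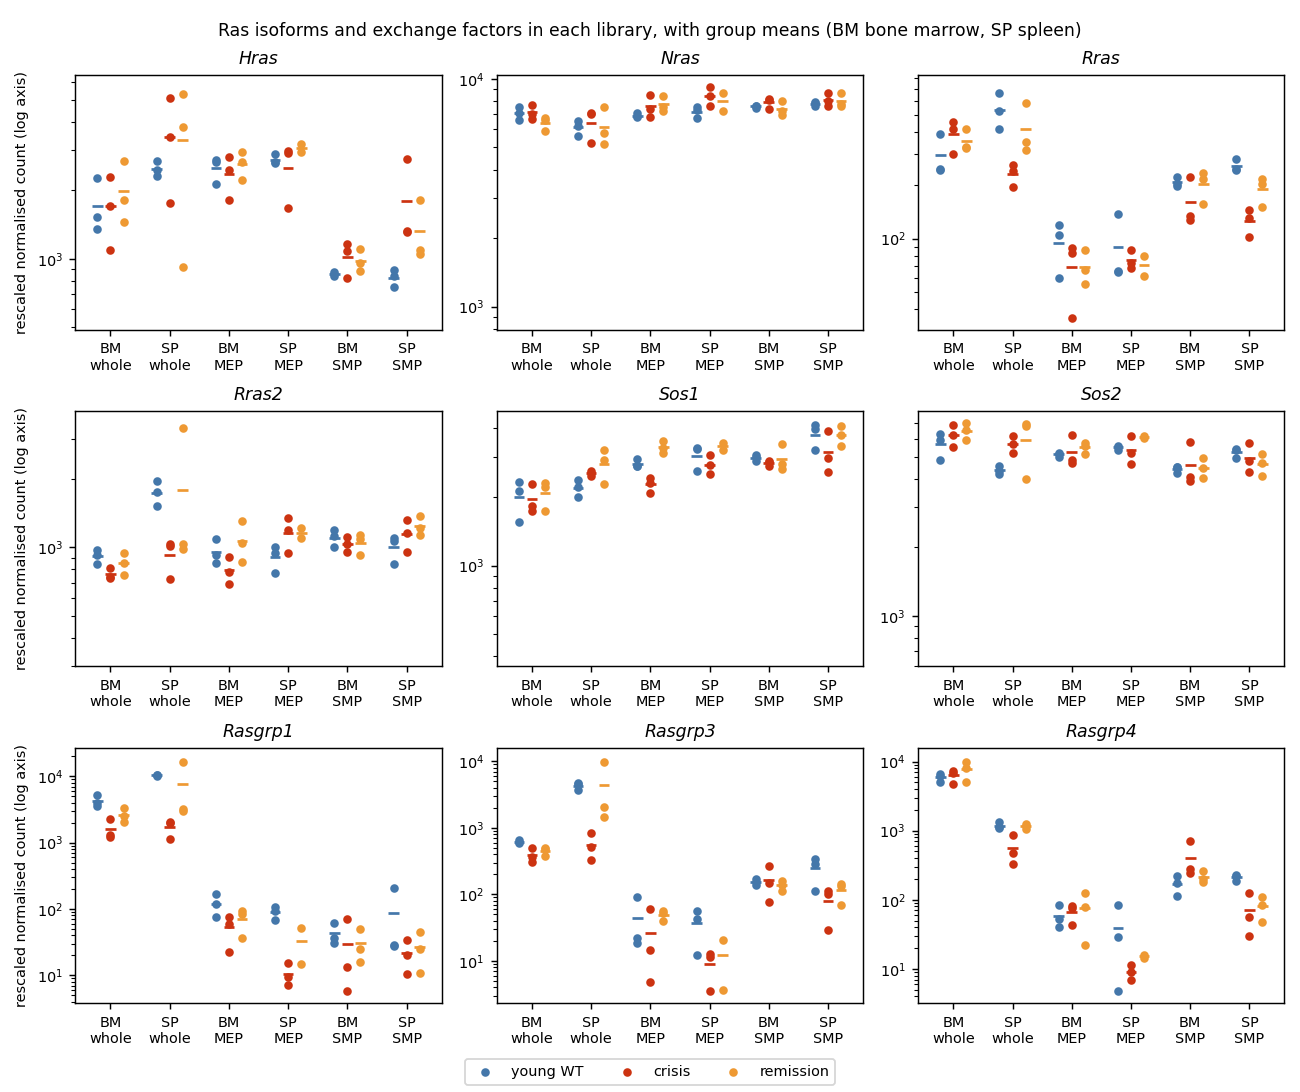
Rescaled normalised counts (log axis) of each of the 9 genes in every library of young wild-type, crisis and remission mice, by population; points are libraries and bars group means. Nras and Sos2 stay within a narrow band, whereas Rasgrp1, Rasgrp3 and Rasgrp4 are high in whole tissue and low in sorted MEP and SMP.

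As shares of the 4 GTPases per kilobase, Nras made up 41.4% ± 1.56 (SD, n = 3) in whole spleen, 57.8% ± 6.36 in whole bone marrow, 55.8% and 55.9% in MEP of bone marrow and spleen, and 66.1% and 66.6% in SMP. Hras supplied 28.9% ± 3.16 and 30.3% ± 1.44 in MEP but 10.7% ± 0.229 and 10.1% ± 0.685 in SMP. Rras and Rras2 together were most prominent in whole spleen, at 17.0% and 17.5% of the 4. Among the 5 exchange factors, Sos2 held 58.0% to 67.2% and Sos1 29.3% to 33.5% in the sorted populations. Whole bone marrow was instead divided between Rasgrp4 (35.0%), Rasgrp1 (28.6%) and Sos2 (25.2%), and whole spleen between Rasgrp1 (52.8% ± 2.35), Rasgrp3 (21.2% ± 2.47) and Sos2 (14.7% ± 0.614). With the longest transcript as length, Rasgrp1 held 23.4% and Sos2 29.2% in whole bone marrow.

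**Figure D2:**
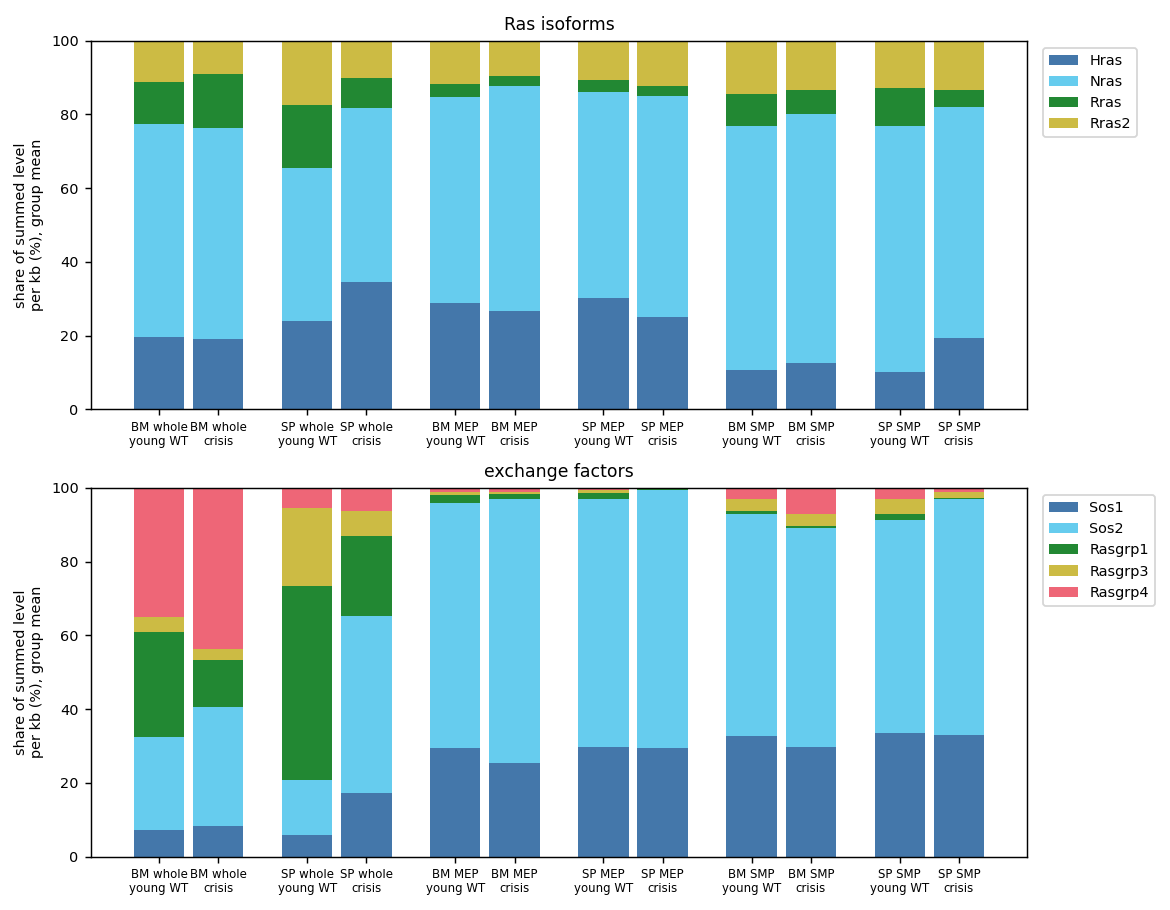
Mean share (percent) of each gene within the 4 GTPases (upper panels) and within the 5 exchange factors (lower panels), from normalised counts per kilobase of exon, in the 6 populations of young wild-type and crisis mice. Sos2 and Sos1 fill most of the bar in MEP and SMP, and the Rasgrp1 share in whole spleen is 52.8% in wild type and 21.7% in crisis.

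Differences between the sorted populations were tested with limma over all 18 young wild-type libraries. Between MEP and SMP of bone marrow, 5 of the 9 genes passed (adjusted p under 0.05), where 63.6% of all genes did. Of the GTPases, Hras was higher in MEP: its 3 bone marrow libraries read 2729, 2677 and 2126 normalised counts in MEP and 862, 843 and 880.0 in SMP, a log2 difference of 1.60 (SE 0.147, adjusted p 1.1e-07). The 2 sets of Hras values were far apart. Rras was lower in MEP, by 1.11 on the log2 scale (adjusted p 0.00463), with 105, 60.2 and 120.0 normalised counts in MEP and 223, 199 and 204 in SMP. Among the exchange factors, Rasgrp3 fell by 2.09 from SMP to MEP and Rasgrp1 was higher in MEP by 1.51 (adjusted p 0.0317), a call lost without replicate 1 or 3 of either population (0.0702 to 0.107) and on the counts as deposited (0.168). Sos2 was higher in MEP by 0.28 (adjusted p 0.00849), but by 0.07 (adjusted p 0.881) on the counts as deposited.

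In spleen, 4 of the 9 passed between MEP and SMP, where 67.9% of all genes did. Hras read 2633, 2655 and 2875 normalised counts in MEP and 893, 843 and 749 in SMP, and was higher in MEP by 1.80 (SE 0.147, adjusted p 2.22e-08). Rras (fell by 1.52), Rasgrp3 (fell by 2.73) and Rasgrp4 (fell by 3.04) were lower in MEP. For Rasgrp4 the MEP libraries spread widely, at 4.72, 28.9 and 83.0 normalised counts against 220.04, 187 and 227 in SMP. Fam98c, which shares exon bases with Rasgrp4, was also lower in MEP, at 347 to 496 against 1309.9 to 1813 in SMP. Nras and Rras2 did not pass in either tissue, with differences between −0.14 and −0.04. Without rescaling, when the median difference of all genes in spleen was −0.95 and not −0.10, 8 of the 9 passed there and Sos2 turned from 0.15 (adjusted p 0.130) to −0.73 (adjusted p 0.0421).

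Whole spleen differed from whole bone marrow in 7 of the 9 genes, against 29.4% of all genes. Rasgrp3, with 3677, 4563 and 4714 normalised counts in spleen and 590, 606 and 657 in bone marrow, was higher by 2.79 (SE 0.567, adjusted p 0.00166). Rasgrp4 fell by 2.32 from bone marrow to spleen (adjusted p 0.0139), with 1111, 1341 and 1097 normalised counts against 6568, 5055 and 6105. Fam98c was not lower in spleen, at 689 to 821 against 568 to 692 in bone marrow. The GTPases Rras2 (0.92), Rras (0.86) and Hras (0.57) were higher in spleen, and Nras (−0.21) and Sos2 (−0.38) were lower. On the counts as deposited Rasgrp3 alone passed (2.79, adjusted p 0.0131). Leaving out single libraries ended the calls for Nras (bone marrow replicate 1 or 3, spleen replicate 1 or 2, adjusted p 0.0572 to 0.158), Rras (bone marrow replicate 1 or 3, spleen replicate 2 or 3, 0.0882 to 0.159) and Hras (bone marrow replicate 1, 0.0512). Rasgrp1 did not pass (1.30, adjusted p 0.105), although all its spleen libraries (9943 to 10617) were above all its bone marrow libraries (3602 to 5228). For each gene the fit used a variance shared by all young wild-type libraries, sorted ones included. Rasgrp1 read 209, 28.4 and 27.4 normalised counts in young wild-type spleen SMP. Its adjusted p, like the SE of Rasgrp3, therefore does not describe the spread of whole tissue alone. A fit to the young wild-type whole-tissue libraries alone is not given here. In MEP and in SMP none of the 9 passed between the tissues, where 0.699% and 5.62% of all genes passed. At an unadjusted p under 0.05 the counts of the 9 were 0 and 2. The share of all genes at an unadjusted threshold is not given here or below, so such counts are description only. Without spleen MEP replicate 3, the library high in Mpo, Rasgrp4 passed in MEP (−2.13, adjusted p 0.0089, against −1.24 with it). The all-gene numbers, 112 and 900, ran from 0 to 1682 in MEP and from 325 to 1170 in SMP as 1 library was left out.

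In crisis the whole spleen showed the broadest difference among the 9 genes. Compared with young wild type, 6 of the 9 passed, Sos2 upwards and Rras, Rras2, Rasgrp1, Rasgrp3 and Rasgrp4 downwards, where 46.3% of all genes passed, 22.3% upwards and 24% downwards. The median log2 difference of the 9 was −0.91, against −0.05 over all genes tested. A bulk library does not separate fewer cells of a type from less RNA per cell, and the 2 cannot be told apart in what follows.

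Rasgrp1, the exchange factor of T cell receptor signalling, read 10617, 9943 and 10399 normalised counts in young wild-type whole spleen and 1138, 2042 and 1984 in crisis. The groups were far from overlapping, and the level was 6.16-fold lower (log2 −2.62, SE 0.219, adjusted p 4.64e-05). Rasgrp3, its B cell relative, read 3677, 4563 and 4714 in wild type and 506, 841 and 328 in crisis. It was 8.21-fold lower (log2 −3.04, SE 0.299, adjusted p 1.01e-04). Rasgrp4, the myeloid member, was lower by a smaller factor, 2.28, with 1111, 1341 and 1097 normalised counts in wild type and 329.8, 469 and 874 in crisis (log2 −1.19, SE 0.325, adjusted p 0.0157). Fam98c, which shares exon bases with Rasgrp4, was also lower there, at 689 to 821 in wild type and 178 to 360 in crisis. The Rasgrp4 call was lost when crisis replicate 2 (adjusted p 0.0527) or wild-type replicate 2 (0.0633) was left out, whereas Rasgrp1 and Rasgrp3 passed in all 13 alternatives run.

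The lymphocyte markers of the same libraries moved with these genes. All 10 T cell markers and all 10 B cell markers were lower in crisis spleen, with medians of −3.30 and −3.51 on the log2 scale. The summed T cell markers ran from 36149 to 55482 normalised counts in wild type and from 3592 to 7210 in crisis, and the summed B cell markers from 143117 to 169825 and from 10585 to 21314, with no marker of either list at 0. Erythroid markers were higher (9 of 9, median 1.39). Of the other lists, 1 of 8 late neutrophil, 3 of 8 mast cell, basophil and eosinophil, 5 of 9 monocyte and macrophage, and 3 of 8 stem and early progenitor markers were lower. Of the stem and megakaryocyte markers 1 each was higher, and none of 6 primary granule markers passed. The part of these cell types in the RasGRP differences was not tested.

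Of the GTPases in whole spleen, Rras, a relative known for its part in cell adhesion, read 417, 521 and 661 normalised counts in wild type and 195, 242 and 258 in crisis. It was 2.26-fold lower (log2 −1.17, SE 0.250, adjusted p 0.00469). Rras2, also called TC21 and known from lymphocyte receptor signalling, read 1510, 1750 and 1945 in wild type and 726, 1015 and 1033 in crisis, 1.88-fold lower (log2 −0.91, SE 0.187, adjusted p 0.00389). Neither gene's groups overlapped. The Rras2 call was lost on the counts as deposited (adjusted p 0.0610) and with all groups of the population in the model (0.146).

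Nras read 5639, 6230.2 and 6508 normalised counts in wild-type spleen and 5218, 7066 and 6996 in crisis, an estimate of 0.07 (95% interval −0.28 to 0.41, adjusted p 0.746). Hras spread widely in crisis, at 5075, 3414 and 1753 against 2463, 2314 and 2691, and its estimate of 0.34 did not pass (adjusted p 0.430). Without crisis replicate 3, which held the lowest Hras value, the estimate was 0.75 (adjusted p 0.00915).

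Of the Sos genes, Sos2 was 1.30-fold higher in crisis spleen, at 5702, 5178 and 6134 normalised counts against 4312, 4569.9 and 4214 (log2 0.38, SE 0.124, adjusted p 0.0313). Sos1 read 2547, 2465 and 2614 against 2382, 2205 and 2006, an estimate of 0.22 that did not pass (adjusted p 0.206). The Sos2 call was close to the threshold: it was lost on leaving out wild-type replicate 1, 2 or 3 or crisis replicate 3 (adjusted p 0.0585 to 0.113), with no filter (0.0514), without trended robust variances (0.0704), with all groups of the population (0.277) and on the counts as deposited (0.511). As shares of the 5 exchange factors per kilobase, Sos2 held 47.9% ± 5.40 (SD, n = 3) in crisis spleen and 14.7% ± 0.614 in wild type, Sos1 17.3% and 5.95%, Rasgrp1 21.7% and 52.8%, and Rasgrp3 6.92% and 21.2%. None of these shares overlapped between the groups. The shares of the 5 genes add up to a fixed whole, so a lower share of 1 gene raises the others, and they are not independent results.

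**Figure D3:**
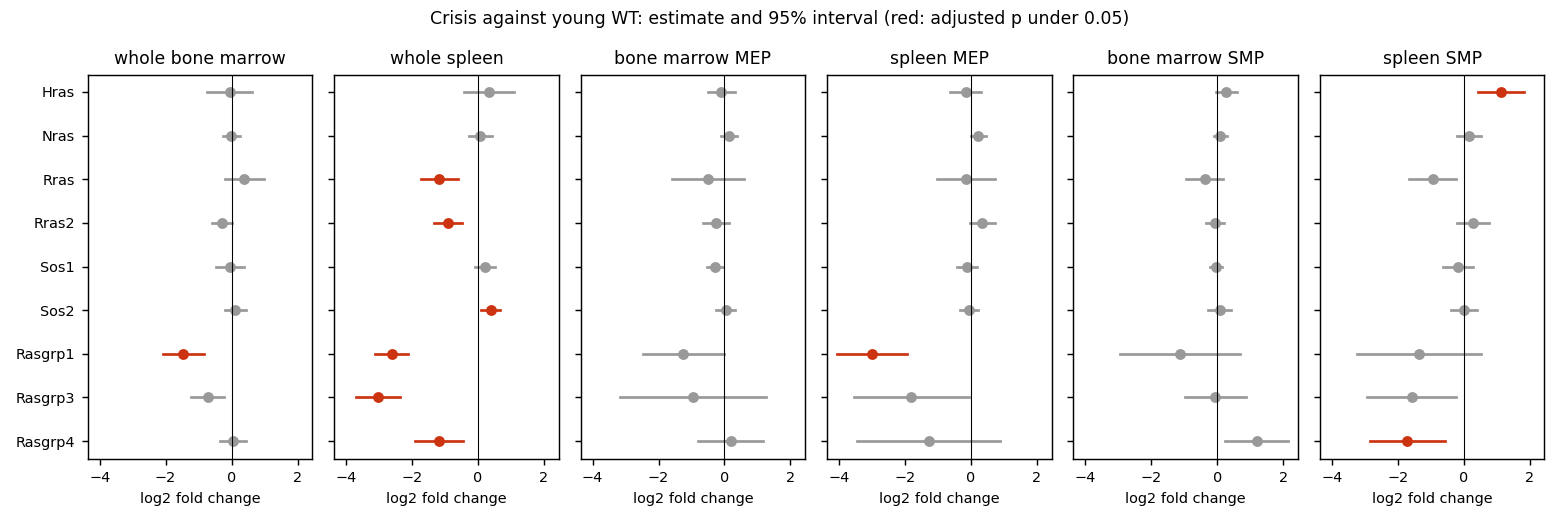
Log2 difference of crisis from young wild type (limma, on log2 of rescaled normalised count plus 1) for the 9 genes in 6 populations, with 95% confidence intervals; red marks an adjusted p under 0.05. The largest negative values are those of Rasgrp1 and Rasgrp3 in whole spleen and Rasgrp1 in spleen MEP, and the Nras and Sos1 intervals are narrow and near 0 in most populations.

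In whole bone marrow 1 of the 9 genes passed, against 8.85% of all genes (1439 genes, and 94 to 3027 with 1 library left out). Rasgrp1 read 5228, 3908 and 3602 normalised counts in young wild type and 2277, 1224 and 1311 in crisis. The groups did not overlap, and the level was 2.77-fold lower (log2 −1.47, SE 0.270, adjusted p 0.0220). Leaving out any library other than crisis replicate 1 ended the call (adjusted p 0.0535 to 0.0941), while without that library the estimate was −1.78 (adjusted p 6.92e-04). The call was also lost without trended robust variances (0.0805) and with all groups of the population (0.0589).

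Rasgrp3 in whole bone marrow read 590, 606 and 657 in wild type and 491, 307 and 365 in crisis and did not pass (log2 −0.72, adjusted p 0.0785). Without crisis replicate 1 it did (−0.93, adjusted p 0.0111). Here the B cell markers were lower in crisis (2 of 10 passed; summed, 130852 to 157049 normalised counts in wild type and 14973 to 77754 in crisis), while none of 10 T cell markers passed, with sums of 3865 to 4343 and 3774 to 6821. Erythroid (7 of 9) and monocyte and macrophage (5 of 9) markers were higher, and 2 of 7 megakaryocyte markers were lower. Rasgrp4, the most abundant RasGRP of the marrow, read 6568, 5055 and 6105 in wild type and 4751, 7278 and 6884 in crisis, an estimate of 0.05 (95% interval −0.35 to 0.45).

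The crisis effect in whole spleen differed from that in whole bone marrow for 4 of the 9 genes by the interaction term, against 18.1% of all genes. The difference, spleen minus bone marrow, was −2.35 for Rasgrp3 (SE 0.400, adjusted p 0.00185), −1.60 for Rras (SE 0.361, adjusted p 0.00944), −1.28 for Rasgrp4 (adjusted p 0.0464) and −1.19 for Rasgrp1 (adjusted p 0.0437). Rras was lower in crisis spleen, whereas in bone marrow it read 245, 391 and 248 in wild type and 412, 457 and 299 in crisis. The calls for Rasgrp1 and Rasgrp4 lay near the threshold and were lost in 8 and 10 of 12 fits that left out 1 library. On the counts as deposited Rasgrp3 alone passed. With the mouse as a block, 5 of the 9 passed, the added gene being Rras2 (−0.64, adjusted p 0.0364).

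In sorted MEP few of the 9 genes passed between crisis and wild type. None passed in bone marrow MEP by limma, where 0.197% of all genes did (28 genes, and 6 to 1693 with 1 library left out); 2 had an unadjusted p under 0.05, Sos1 with an estimate of −0.29 and Rasgrp1 with −1.25. Sos1 read 2935, 2730.25 and 2748 normalised counts in wild-type bone marrow MEP and 2423, 2091 and 2315 in crisis, which did not overlap, but its adjusted p was 0.306.

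In spleen MEP 1 of the 9 passed, against 1.17% of all genes (159 genes, and 8 to 900 with 1 library left out). Rasgrp1 read 68.4, 94.7 and 107 normalised counts in wild type and 9.59, 15.1 and 7.07 in crisis. The groups did not overlap, at levels far below those of whole spleen (log2 −2.99, SE 0.466, adjusted p 0.0358). T cell markers were lower in the same libraries (2 of 7 tested), with sums of 723 to 1278 normalised counts in wild type and 173 to 349 in crisis. None of 10 B cell markers passed (sums 1484 to 10938 and 1422 to 1841), and 2 of 8 stem and early progenitor markers were lower. The part of residual T cells in the Rasgrp1 value was not tested. The call was lost on leaving out any of the 3 wild-type libraries or crisis replicate 2 or 3 (estimates −3.24 to −2.77, adjusted p 0.0750 to 0.189), without trended robust variances (0.0741) and with all groups of the population (0.117).

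In SMP of bone marrow none of the 9 passed by limma, against 2.36% of all genes (360 genes, and 5 to 2957 with 1 library left out); 1 had an unadjusted p under 0.05. This was Rasgrp4, which read 112, 173 and 219 normalised counts in wild type and 699, 278 and 242 in crisis, higher in all 3 crisis libraries, with an estimate of 1.19 (SE 0.411, adjusted p 0.142). On the counts as deposited it passed (1.30, adjusted p 0.0394). Fam98c, which shares exon bases with Rasgrp4, read 1329 to 1650 in wild type and 1542 to 1852 in crisis there. None of 8 mast cell, basophil and eosinophil markers tested and none of 6 primary granule markers passed there, while 7 of 9 erythroid markers were higher. Lower there were 2 of 8 stem and early progenitor and 1 of 7 megakaryocyte markers. Without crisis replicate 1, which read 70.2 against 5.71 and 13.3 normalised counts in the other crisis libraries, Rasgrp1 passed in bone marrow SMP (−2.08, adjusted p 0.0335).

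In SMP of spleen 2 of the 9 passed, 1 in each direction, against 23.6% of all genes (12.3% higher and 11.3% lower). That share rests on 3635 genes, a number that ran from 0 to 5729 when 1 library was left out. Hras read 893, 843 and 749 normalised counts in wild type and 1316, 2736 and 1328 in crisis. All 3 crisis libraries were above all 3 wild-type libraries, and the level was 2.18-fold higher (log2 1.13, SE 0.306, adjusted p 0.0339). Its share of the 4 GTPases per kilobase was 10.1% ± 0.685 (SD, n = 3) in wild type and 19.2% ± 6.17 in crisis. Rasgrp4 read 220.04, 187 and 227 in wild type and 123, 30.1 and 56.9 in crisis, 3.27-fold lower (log2 −1.71, SE 0.501, adjusted p 0.0399). Fam98c read 1309.9 to 1813 in wild type and 622 to 1286 in crisis.

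These spleen SMP libraries also differed in their other markers. Erythroid markers were higher (7 of 9; sums 28187 to 38816 normalised counts in wild type and 84592 to 208399 in crisis), and all 8 stem and early progenitor markers were lower (58242 to 83713 and 12079 to 38582). In young wild type, where Hras was higher in MEP than in SMP, the same erythroid sums were 211908 to 288576 in spleen MEP. Lower, too, were 2 of 6 primary granule markers (35787 to 58409 and 10635 to 35312) and 2 of 6 mast cell, basophil and eosinophil markers, with Fcer1a at 0 in all 6 libraries. So were 3 of 10 T cell markers (4229 to 5374 and 371 to 2120) and 1 each of 10 B cell, 9 monocyte and macrophage, and 7 megakaryocyte markers. The part of these shifts in the Hras and Rasgrp4 differences was not tested.

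Both calls in spleen SMP were fragile. Hras did not pass on leaving out any wild-type library or crisis replicate 3 (adjusted p 0.0646 to 0.103), without trended robust variances (0.0854) or on the counts as deposited (0.62, adjusted p 0.354). Rasgrp4 kept its call only without crisis replicate 1, out of the 6 fits that left out 1 library (the others 0.0729 to 0.117), and lost it without trended robust variances (0.0817). Rras read 248, 279 and 243 in wild type and 145, 101 and 131 in crisis with no overlap, but did not pass (log2 −0.94, adjusted p 0.0560). It passed on the regularised log2 values (0.0426), with all groups of the population (0.0291), on 1 scale over all libraries (0.0459) and without crisis replicate 1 (0.0413).

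The crisis effects of spleen and bone marrow did not differ by the interaction term for any of the 9 in MEP or in SMP, where 0% of all genes passed in both. With 1 library left out, 0 to 1 genes passed in MEP and 0 to 2396 in SMP. Unadjusted, 2 of the 9 had a p under 0.05 in each. The largest was Rasgrp4 in SMP, at −2.90 (SE 0.692, adjusted p 0.189), with values higher in crisis than in wild type in bone marrow and lower in spleen. Without spleen crisis replicate 1 it passed (−3.40, adjusted p 0.0202).

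Remission libraries were compared with crisis libraries in each population. None of the 9 passed by limma in any population (8 tested in spleen MEP, where Rasgrp3 was below the filter), and of all genes 0.0226% passed in spleen MEP and 0% elsewhere. With 1 library left out the all-gene number stayed at 0 in whole spleen and reached 703 in whole bone marrow, 984 in bone marrow SMP and at most 41 in the others. At an unadjusted p under 0.05 there were 3 of the 9 in whole spleen, 1 in whole bone marrow and 1 in bone marrow MEP. The share of all genes at that unadjusted threshold is not given, so these counts have no measure beside them.

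The 3 in whole spleen were the RasGRP genes. Rasgrp1 read 16434, 3028 and 3171 normalised counts in remission replicates 1, 2 and 3, against 1138 to 2042 in crisis and 9943 to 10617 in young wild type. Rasgrp3 read 9748, 1440.2 and 2028 in remission, against 328 to 841 in crisis and 3677 to 4714 in young wild type. Rasgrp4 read 1262, 1175 and 1049, against 329.8 to 874 and 1097 to 1341.

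Every remission value of these 3 genes was above every crisis value. The 3 genes were picked by their p on these same values, so this separation is no further result. The share of all genes without overlap is not given. Remission replicate 1, the library that stood apart, lay above young wild type for Rasgrp1 and Rasgrp3. For both genes replicates 2 and 3 lay between crisis and wild type. The estimates were 1.66 for Rasgrp1, 2.51 for Rasgrp3 and 1.13 for Rasgrp4 (adjusted p 0.401 for each). Without replicate 1 they were 0.87 (adjusted p 0.209), 1.69 (0.120) and 1.08 (0.283). The single older wild-type whole spleen library read 12789, 7262 and 1446 normalised counts for the 3 genes.

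Remission replicate 1 also stood apart for the GTPases. Rras2 read 3327, 1032 and 984 normalised counts in replicates 1, 2 and 3, against 726 to 1033 in crisis, and Rras read 585, 316 and 349 against 195 to 258. The estimates were 0.67 for Rras2 (0.11 without replicate 1) and 0.76 for Rras (0.50 without it), and neither passed. Hras read 917 in replicate 1 and 3785 and 5317 in the other replicates. Sos2 read 3989 in replicate 1 and 6951 and 6833 in the others, against 5178 to 6134 in crisis and 4214 to 4569.9 in young wild type. The summed T cell markers of the 3 remission libraries ran from 10819 to 75030 normalised counts and the summed B cell markers from 39689 to 236877.

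**Figure D4:**
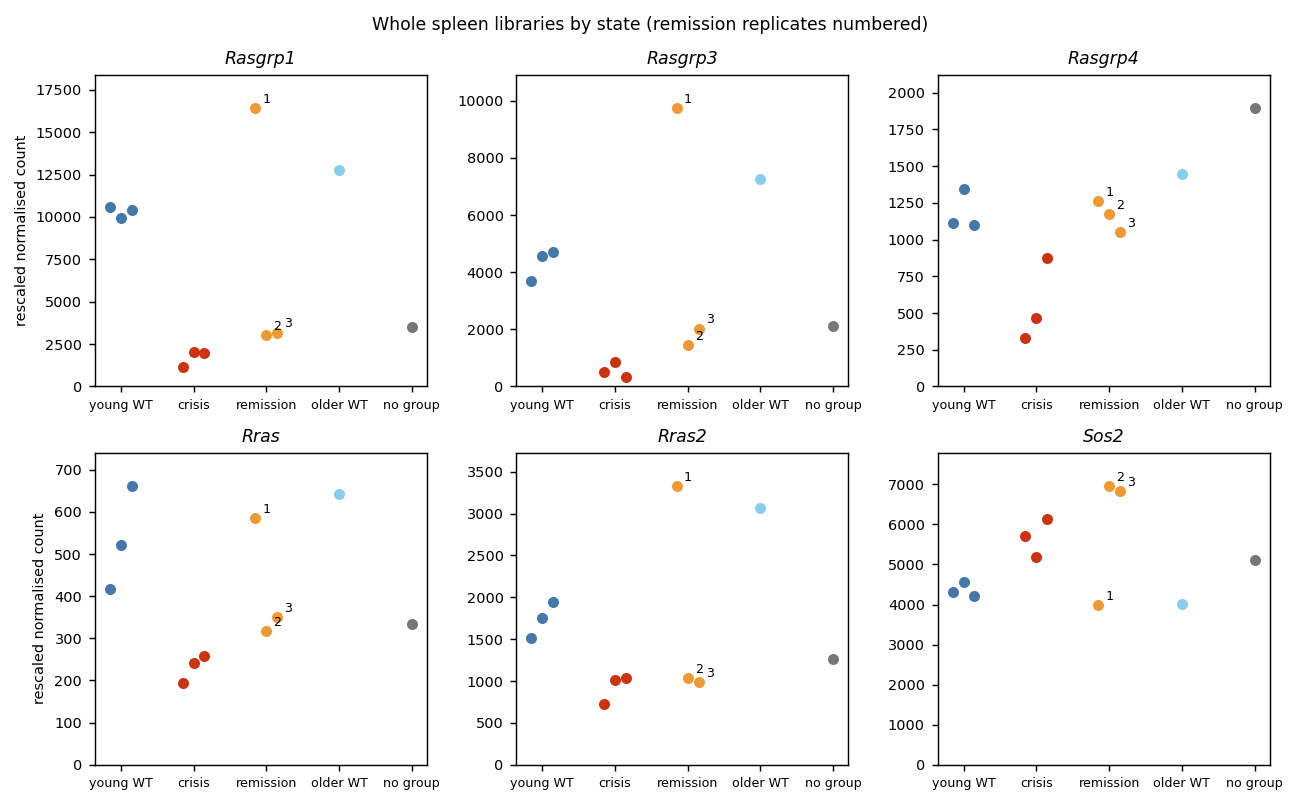
Rescaled normalised counts in every whole spleen library for 6 of the genes, by state, with remission replicates numbered and the library that the labels place in no group shown apart. Remission replicate 1 lies near or above the wild-type libraries for Rasgrp1, Rasgrp3, Rras and Rras2, and replicates 2 and 3 lie nearer to crisis for Rasgrp1, Rasgrp3 and Rras2.

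In whole bone marrow Rasgrp1 read 3318, 2558 and 2068 normalised counts in remission and 2277, 1224 and 1311 in crisis (log2 0.76, adjusted p 0.342, and 0.60 without remission replicate 1, adjusted p 0.631). Without crisis replicate 1 it passed (1.06, adjusted p 0.0326). In bone marrow MEP Sos1 read 3533, 3282 and 3112 in remission and 2091 to 2423 in crisis, without overlap (log2 0.53, SE 0.120, adjusted p 0.467, and 0.49 without remission replicate 1, adjusted p 0.972). In spleen SMP Hras read 1092, 1818 and 1050.05 in remission, between the wild-type and crisis groups in 2 of 3 libraries, with an estimate of −0.45 that did not pass (adjusted p 0.499). Rras there read 217, 150.5 and 203, all above the 101 to 145 of crisis.

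The levels of the RasGRP genes were set beside cell type markers over the 36 crisis and young wild-type libraries. The Pearson correlation of log2 levels was 0.820 for Rasgrp1 and 0.930 for Rasgrp3 with the summed T cell markers, and 0.861 and 0.866 with the summed B cell markers. Rasgrp4 correlated at 0.891 with late neutrophil markers and at 0.944 with mast cell, basophil and eosinophil markers. These values describe 36 libraries from 6 populations that fall into whole and sorted groups, and Rasgrp1 also correlated at 0.869 with late neutrophil markers, so they do not set 1 cell type apart from another. For the GTPases, Rras correlated at 0.878 with monocyte and macrophage markers and Hras at −0.848 with stem and early progenitor markers.

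**Figure D5:**
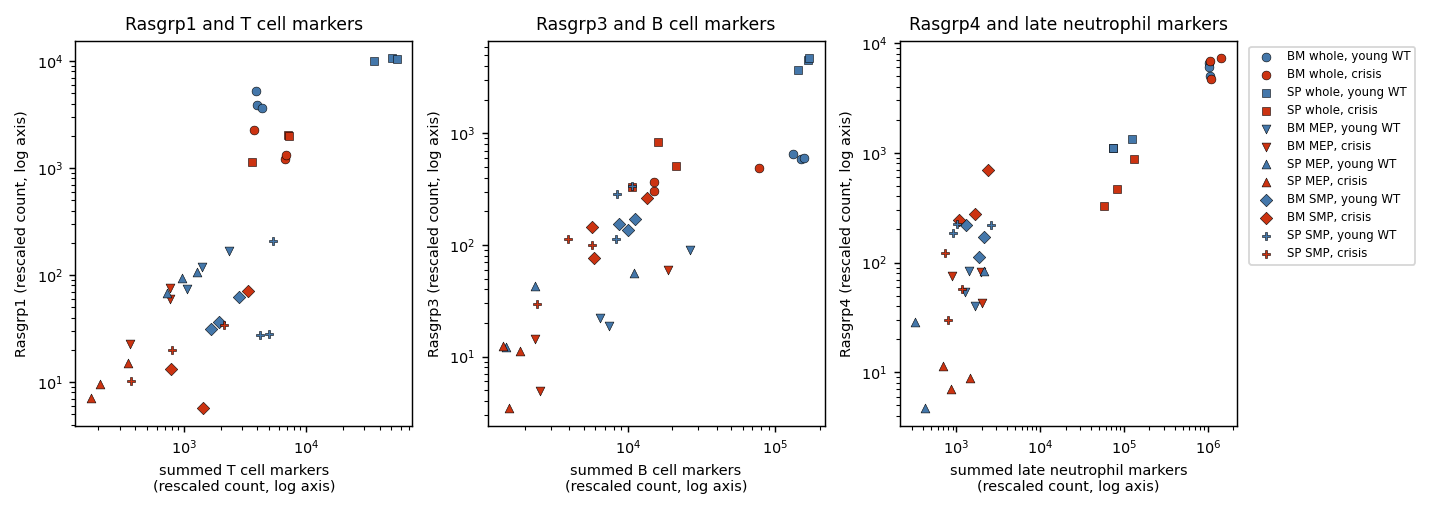
Level of Rasgrp1 against summed T cell markers, Rasgrp3 against summed B cell markers and Rasgrp4 against summed late neutrophil markers in the 36 crisis and young wild-type libraries (rescaled normalised counts, both axes log). Rasgrp1 lies between 1138 and 10617 in whole-tissue libraries and at 209 or below in sorted ones.

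The genes most like each member over those 36 libraries, among 12004 genes compared, were Ikzf3 (r 0.971) and Cd2 (0.969) for Rasgrp1, Abi3 (0.969) and Dgka (0.967) for Rasgrp3, and S100a6 (0.974) and Itgb2 (0.970) for Rasgrp4. Cd2 encodes a T cell surface protein, Ikzf3 the lymphoid factor Aiolos and Dgka a kinase that removes diacylglycerol. For the GTPases they were A430005L14Rik (0.955) and Tma7 (0.946) for Hras, Mapk6 (0.846) and Cnot7 (0.846) for Nras, Stard5 (0.952) and Pea15a (0.946) for Rras, and Il27ra (0.732) and Psme2 (0.673) for Rras2. For the Sos genes they were Ube4b (0.854) and Ppp1r9a (0.849) for Sos1 and Hcfc2 (0.707) and Exoc1 (0.703) for Sos2. The best correlations were lower for Nras, Sos1, Sos2 and Rras2, the 4 genes that varied least over the populations, than for the other 5.

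The promoter windows of the members, the 250 bases before each RefSeq start site (GRCm38.p6), were read for 8 of the 9. Rasgrp4 was not analysed here. The Rasgrp1 window, chr2:117342878-117343127, overlaps the gene as annotated in GENCODE M21, which reaches to 117343001. CpG dinucleotides numbered 21 in Rasgrp1 and 4 in Rasgrp3, against a median of 6 (quartiles 2 and 16) over 27025 promoters. The others held 24 (Hras), 14 (Nras), 7 (Rras), 14 (Rras2), 22 (Sos1) and 47 (Sos2). The letters GATAA or GATAG after A or T, read on both strands as matches to the motif of GATA factors, occurred in 27.1% of all promoters and among the members once in Rasgrp1 and once in Nras. The letters GGAAGT, a form of the ETS motif, on either strand, occurred in 19.99% of all promoters and among the members once, in Rasgrp3. Shorter forms of that motif were not searched. No match of 1 motif overlapped a match of the other.

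The stretches around the matches are shown because Rasgrp1 and Rasgrp3 had the largest crisis differences in whole spleen and Nras was among the steadiest genes. Each reads 5′ to 3′ on the strand of the gene, with the match in capitals: chr2:117342937-117342966 (minus strand), chr3:103058077-103058106 (plus strand) and chr17:75435655-75435895 (plus strand, up to the first annotated base of the gene).
Rasgrp1: cctccagcctgaTGATAAcatcaacgcctg
Nras: taaagaggccgtTTATCTttgtaaacacaa
Rasgrp3: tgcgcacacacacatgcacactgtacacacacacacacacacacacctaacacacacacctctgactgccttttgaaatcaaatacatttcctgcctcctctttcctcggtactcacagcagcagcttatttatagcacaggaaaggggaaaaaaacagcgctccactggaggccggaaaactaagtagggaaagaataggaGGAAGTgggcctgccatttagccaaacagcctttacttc
The capitals of Nras are the reverse complement of AGATAA. The Rasgrp1 stretch lies before the RefSeq start site but inside the gene as annotated in GENCODE M21. These are matches of letters only, and no binding was measured in the samples.

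The rest of the pathway was described by lists of genes around the 9. The lists were chosen with earlier results of these data known, so their counts are description only. The part of cell types in the differences of the lists was not tested. In crisis whole spleen, 12 of 13 genes that supply or remove diacylglycerol, the signal of the RasGRP proteins, were lower and none higher, with a median of −1.47 on the log2 scale against −0.05 over all genes, of which 24% were lower. Plcg2, the phospholipase of B cell receptor signalling, had the smallest p (−2.32, adjusted p 8.61e-06). Of 8 other exchange factors tested 4 were lower and none higher, among them Rgl2, an activator of Ral (−2.17, SE 0.166, adjusted p 2.72e-05). Of 18 adaptors upstream of Sos, 10 were lower and 5 higher, led by Grap (−3.22), an adaptor of lymphocytes, and Crkl (0.64).

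The shares over all genes in that comparison, 22.3% higher and 24% lower, are given beside these counts and the lists that follow. Of 10 GTPase-activating proteins, a list that holds Rasa3 itself (−2.19), 6 were lower, with Rasal1 (−3.53) first, and 1 was higher. Raf, MEK, ERK and their scaffolds had 3 higher and 3 lower of 10, with Map2k1 (−0.90) first among the lower. The lipidation and trafficking genes that act on the CAAX box and the membrane anchor also had 3 of 10 in each direction, with Fntb (0.97), the beta subunit of the farnesyltransferase, and Lypla2 (−0.70). Other GTPases of the family had 3 of 11 in each direction, with Rit1 (0.93) and Rala (−1.01).

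In spleen SMP, where 12.3% of all genes were higher and 11.3% lower, most list members that passed were lower. Of the diacylglycerol genes 6 of 13 were lower (Plcb2, −2.05), of the other exchange factors 5 of 8 (Rgl1, −1.70), of the GTPase-activating proteins 5 of 10 (Rasa4, −1.56, with Rasa3 among the 5) and of the adaptors 5 of 18 (Sh2b3, −0.88), with 1 adaptor, Gab2 (1.05), higher. None of the kinases, lipidation genes or other GTPases passed there. In whole bone marrow 5 of 13 diacylglycerol genes were lower (Dgke, −1.59), and the other lists had 0 or 1 in each direction. In bone marrow MEP no gene of any list passed, in bone marrow SMP only Dab2ip (−0.98), and in spleen MEP 1 of 18 adaptors was higher (Gab2, 2.09) and 2 lower (first Grap2, −1.75), with Plcb2 (−3.07) and Dab2ip (−2.93) also lower.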

How the data were processed

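The authors deposited normalised read counts per gene, a signal unit that can take any value from 0, and regularised log2 values. Per the submitters' processing notes, Bowtie2 2.2.0, RSEM, DESeq2 and GRCm38 were used; their settings, and whether counting used strand, are not given in the sources used here. Libraries were made with a KAPA mRNA kit, per the labels' protocols. From the deposited normalised counts (26286 genes, 64 libraries, 63 of them assigned to groups) each library was rescaled by median ratios, and log2(value + 1) was tested with limma 3.58.1 in R 4.3.3 (trended, robust variances), for genes with a mean of at least 10, with Benjamini-Hochberg adjustment over all genes and a threshold of 0.05. The exact permutation test of 3 libraries against 3 cannot go below 0.1. Printed levels use 1 scale over the 63 libraries, so a fold computed from them can differ slightly from the fitted one. Levels per kilobase divide by the union of exons in GENCODE M21. With the longest transcript as length instead, 34 of 54 young wild-type levels moved by their SD or more and 20 moved by less. Replicates were numbered in accession order and pair nothing; mice that gave several populations were used as a block in an alternative. Normalised values do not give the read depth, so counting error is unknown. The limma step was tested on simulated data. Every member was named where it passed; of other lists, the gene with the smallest p in each direction was named, and per member the 2 genes of highest correlation among those with a mean of at least 100. Some genes of these lists are not reported here. The members and lists were chosen with earlier results of these data known. Alternatives were a pseudocount of 10, no filter, no rescaling, regularised log2 values, other variance settings, all groups of a population in 1 model, and each library left out.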

Additional observations from a re-analysis of the deposited data

Results flagged for a closer look

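The crisis effect of 4 genes differed between whole spleen and whole bone marrow when the difference itself was tested as an interaction in limma. The estimate, spleen minus bone marrow on the log2 scale, was −1.60 for Rras, −1.19 for Rasgrp1, −2.35 for Rasgrp3 and −1.28 for Rasgrp4. In spleen all 4 genes were lower in every crisis library than in every young wild-type library. In bone marrow this held for Rasgrp1 and Rasgrp3, while Rras and Rasgrp4 overlapped between the groups. The 4 genes were picked by the interaction test on these same values, so their separation in spleen is no further result. In that spleen comparison 24% of all genes were lower by limma, and the share of all genes without overlap is not given. The summed B cell markers were lower in crisis in both tissues and the summed T cell markers in spleen; their part in these differences was not tested.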

How the results depend on the processing

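Of 30 member results that passed, 414 alternatives were run; all 414 kept the direction and 327 stayed past the threshold. Of 149 that did not pass, 2064 alternatives were run, of which 139 had the other sign and 23 passed. In whole bone marrow and in spleen MEP the number of members called in crisis was 0 without trended robust variances and 0 with all groups of the population, and in spleen SMP it was 0 without trended robust variances. Without rescaling, the number was 1 in crisis bone marrow SMP, 3 and 8 between MEP and SMP of bone marrow and spleen, 1 between whole spleen and whole bone marrow, and 1 for the whole-tissue interaction. That interaction gave 2 with no filter and 2 without trended robust variances. Sos2 between MEP and SMP of spleen became −0.73 without rescaling. The causes were not tested.

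Leaving out 1 library at a time gave 0 to 2 members in crisis whole bone marrow, 4 to 6 in whole spleen, 0 in bone marrow MEP, 0 to 1 in spleen MEP, 0 to 1 in bone marrow SMP and 0 to 3 in spleen SMP. It gave 0 to 1 for remission in whole bone marrow and 0 in the other populations. Between MEP and SMP it gave 4 to 5 in both tissues, and between spleen and bone marrow 4 to 7 in whole tissue, 0 to 1 in MEP and 0 in SMP. The interaction gave 2 to 5 in whole tissue, 0 in MEP and 0 to 1 in SMP. With the mouse as a replicate block, the members called were 5 and 4 between MEP and SMP, 7, 0 and 0 between the tissues (whole, MEP, SMP), and 5, 0 and 0 for the interactions. No mouse gave both spleen MEP and spleen SMP in young wild type, so the block pairs nothing in that comparison. Crisis and wild-type mice are different animals, so no paired analysis was possible because those groups share no numbers from the labels. With 3 libraries a group, and 1 or 2 of older wild type, small differences were not resolved.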

Other observations

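A whole spleen library, from a mouse aged 58 days, was placed in no group because its labels contradict those of the other libraries of the same mouse: it is labelled scat/scat in remission, and the others +/+. It read 3536 normalised counts for Rasgrp1, 2118 for Rasgrp3, 1896 for Rasgrp4, 333 for Rras, 1259.7 for Rras2, 3123 for Hras, 5997 for Nras, 2410.3 for Sos1 and 5115 for Sos2. Rasa3 was at 7054 in it.

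The older wild-type libraries of whole bone marrow differed from each other in the lymphoid exchange factors. Rasgrp1 read 979.8 and 3687 normalised counts in them and Rasgrp3 142 and 590.5, while Rasgrp4 read 10161 and 9125. The library with the lower Rasgrp1 and Rasgrp3 came from the mouse of the ungrouped spleen library above, so its wild-type label is in doubt. In spleen MEP, Rasgrp1 read 49.7 and 276 in the 2 older wild-type libraries, the first from that same mouse.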
